A study of Homo sapiens with 4 samples.

Results

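Bromodomain proteins carry the fold that binds acetylated lysine on histone tails and on other proteins. The 39 genes described here are those whose Ensembl ID maps to a symbol of a list of bromodomain genes. Each of the 39 had a row among the 28814 genes of the count table, and all passed the filter on low counts that left 16862 genes for testing. The cells were 697, an established human line of B-cell acute lymphoblastic leukaemia, taken after 24 h with 1 µM MZ1 (2 libraries) or with an equal volume of DMSO, its solvent (2 libraries). The labels name no engineered allele in either group. All 4 libraries come from 1 line. Nothing in the labels tells whether replicates were grown as separate cultures, and a p-value here measures spread between libraries that may be technical only.

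MZ1 is a degrader: its JQ1 part binds the bromodomains of the BET family (bromodomain and extra-terminal), and its other part recruits the ubiquitin ligase VHL, which tags the bound protein for the proteasome. BET proteins read acetylated chromatin and help RNA polymerase II into elongation. The other bromodomain proteins are acetyltransferases, remodelling enzymes, methyltransferases and scaffolds, in which the bromodomain helps anchor a larger complex to acetylated chromatin. The comparison asks which transcripts of these readers rise or fall when BET proteins are degraded. Protein was not measured.

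The libraries held 14246367 to 16488005 counted reads. Levels are in CPM (counts scaled to library size) after TMM scaling, which sets libraries on a common scale from the bulk of genes. Without a spike-in, every fold change is relative to the other genes, and fewer cells of a kind and less RNA per cell cannot be told apart. The 12 B-cell precursor markers were all detected, with summed levels of 4693 and 4707 CPM before TMM scaling with DMSO and 1569 and 1617 with MZ1, and 11 of the 12 fell (RAG1 was not called). Markers of other blood cells were low: T cell markers (2 of 6 with a row) summed to 7.81 and 7.58 with DMSO and 3.99 and 3.72 with MZ1, and myeloid ones (4 of 6) to 6.50 and 5.46 with DMSO and 20.6 and 16.7 with MZ1. Both lists held genes of either direction: TRAC had 0 reads in both MZ1 libraries while CD8A rose (11 and 8 reads with DMSO, 58 and 53 with MZ1), and MPO, at 0 in both DMSO libraries, LYZ and CD14 rose while CSF1R fell (92 and 79 reads, then 14 and 12). ALAS2, a marker of the erythroid line, rose from 2 and 8 reads to 38 and 32. The remaining markers of these lists are not analysed here. The part of these shifts in the results was not tested.

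Bromodomain genes split evenly between the directions under TMM scaling. Of the 39, 18 rose with MZ1, 18 fell and 3 were not called (adjusted p under 0.05 in edgeR's quasi-likelihood fit of the whole table). Over all tested genes 42.8% were called higher and 41.3% lower (84.2% in all), so the members' 46.2% in each direction lies near the background. Among protein-coding genes within the members' range of mean level, 36.0% were higher and 53.2% lower (89.1% in all). Rises of at least 2-fold were called in 8 members (20.5%), against 29.0% of all tested genes and 17.2% of the protein-coding genes in that range. Falls of that size were called in 7 members (17.9%), against 26.2% and 30.8%. The median log2 fold change (MZ1 over DMSO) was 0.02 for the members, 0.05 for all tested genes and −0.20 for protein-coding ones.

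The spread among the members was wide, from ZMYND8, which fell 16.4-fold, to TRIM66, which rose 6.86-fold. The groups did not overlap for 38 of the 39 genes, BRPF1 being the exception, nor for 91.3% of all tested genes and 94.3% of the protein-coding genes in the members' range. The summed level of the 39 genes was 5664 and 5636 CPM with DMSO and 6882 and 6779 CPM with MZ1.

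**Figure D1:**
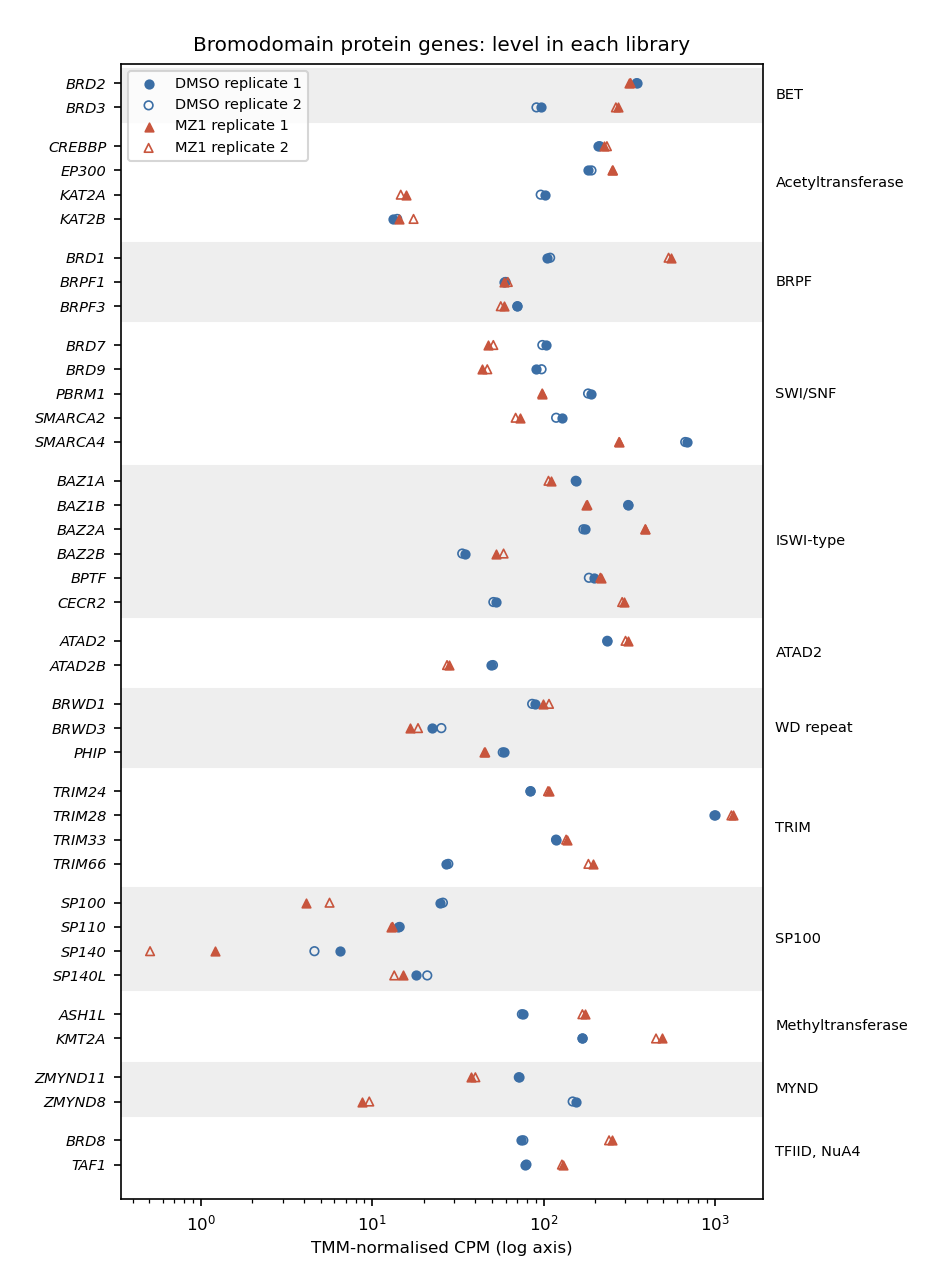
TMM-normalised CPM (log axis) of each of the 39 bromodomain protein genes in each of the 4 libraries, grouped by role. DMSO libraries are blue circles and MZ1 libraries red triangles, with replicate 2 open; the groups are apart for 38 genes and overlap for BRPF1.

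The scaling between libraries bears on the smallest changes. Upper-quartile scaling raised the log2 fold changes of all tested genes by a median of 0.271, and 49.2% of them were then called higher and 34.9% lower. The members were then 21 higher and 13 lower, with a median of 0.29. Of the 39 members, 29 kept their direction and their call or lack of one under 12 alternatives of scaling, filter, test and libraries. The other 10 are BRD2, CREBBP, KAT2B, BRPF1, BRPF3, BPTF, BRWD3, PHIP, SP110 and SP140L, and their changed values stand beside them below.

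The BET genes measured here are BRD2 and BRD3, whose proteins MZ1 binds. BRD3 (chromosome 9, 134030305 to 134068535, GRCh38) stood at 96.9 and 90.9 CPM with DMSO and at 271 and 264 CPM with MZ1. Both MZ1 values lie well above both DMSO values (log2 fold change 1.51 ± 0.05, adjusted p = 1.37e-19, edgeR). BRD2 (chromosome 6, 32968660 to 32981505) stood at 350.3 and 349 CPM with DMSO and at 316 and 322 CPM with MZ1. This small difference was called (log2 fold change −0.13 ± 0.04, adjusted p = 0.00406), but its sign turned with upper-quartile scaling (0.14, adjusted p = 0.00345) and with the stricter count filter (0.04, adjusted p = 0.409). The number of BRD2 reads per BRD3 read, which no scaling between libraries can move, was 3.61 and 3.84 with DMSO and 1.17 and 1.22 with MZ1. BRD3 thus held 21.7% and 20.7% of the reads of the pair before and 46.2% and 45.1% after. Other genes cover 18.6% of the exonic bases of BRD3, most of all the antisense gene BRD3OS, with 44 to 83 reads per library. BRD3 had 1587 and 1540 reads and then 3828 and 3652. Other genes cover 11.9% of BRD2, most of all an antisense gene that is not analysed here.

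The promoters of BRD2 and BRD3 are shown because these are the genes of the proteins that MZ1 binds, and those of ZMYND8 and TRIM66 because these members fell and rose most. Each stretch is the 250 bases before the RefSeq start site nearest to the annotated 5′ end of the gene (GRCh38.p14), on the gene's own strand: chr6:32968344-32968593 (plus) for BRD2, chr9:134068027-134068276 (minus) for BRD3, chr20:47356700-47356949 (minus) for ZMYND8 and chr11:8682666-8682915 (minus) for TRIM66. The start site lies 66 bases from the annotated 5′ end for BRD2, 509 for BRD3, 190 for ZMYND8 and 29 for TRIM66. The BRD3 stretch thus lies wholly inside the annotated gene, and most of the ZMYND8 stretch lies inside its own. Capitals mark CCAAT, on either strand.
BRD2: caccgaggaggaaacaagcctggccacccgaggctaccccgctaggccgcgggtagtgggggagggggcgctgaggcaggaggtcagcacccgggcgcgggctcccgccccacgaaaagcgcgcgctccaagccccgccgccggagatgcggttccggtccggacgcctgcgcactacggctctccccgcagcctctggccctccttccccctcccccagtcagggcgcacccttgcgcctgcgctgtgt
BRD3: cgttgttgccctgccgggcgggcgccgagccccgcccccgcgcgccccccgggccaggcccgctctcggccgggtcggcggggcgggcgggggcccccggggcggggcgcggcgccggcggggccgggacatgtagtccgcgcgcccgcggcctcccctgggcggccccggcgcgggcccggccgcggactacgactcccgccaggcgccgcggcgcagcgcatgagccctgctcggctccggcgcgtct
ZMYND8: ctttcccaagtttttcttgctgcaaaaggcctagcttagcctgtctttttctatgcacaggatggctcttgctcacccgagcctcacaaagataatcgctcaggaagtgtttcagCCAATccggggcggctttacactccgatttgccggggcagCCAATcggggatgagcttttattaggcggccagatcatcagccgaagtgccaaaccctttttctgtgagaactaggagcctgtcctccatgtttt
TRIM66: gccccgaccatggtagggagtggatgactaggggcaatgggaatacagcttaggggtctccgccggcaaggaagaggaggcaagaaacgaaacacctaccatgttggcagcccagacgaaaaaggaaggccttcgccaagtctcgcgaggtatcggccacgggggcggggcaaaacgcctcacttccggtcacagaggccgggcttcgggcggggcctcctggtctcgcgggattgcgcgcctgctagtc
G and C make up 86.8% of the BRD3 stretch, 74.0% of that of BRD2, 63.2% of that of TRIM66 and 50.8% of that of ZMYND8. The median over 62 such windows, from the 34 members found in the RefSeq table (not BAZ1A, ATAD2, BPTF, TRIM28 and TRIM24), is 63.4%, and over 35116 windows of all genes 58%. Of the motifs searched on both strands, CCAAT is in 9 of the 62 member windows (14.5%), against 32.0% of all windows. The E-box CACGTG is in 3 (4.84%, against 6.34%), TATAAA in 2 (3.23%, against 10.7%) and the NRF1 motif in 0 (against 1.03% of all windows). None of these motifs contains another. Of the stretches printed, that of ZMYND8 holds CCAAT and the others hold none of the motifs. Windows at other start sites of TRIM66, not printed, hold CCAAT and the E-box, so this difference depends on the start site chosen. A match describes the letters of a window and is not a measured binding site.

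Acetyltransferases write the mark that bromodomains read. The large coactivator EP300 (p300) rose from 186 ± 5.8 to 252 ± 3.0 CPM (mean ± SD, n = 2 libraries per group here and below; log2 fold change 0.44 ± 0.04, adjusted p = 2.05e-09). Its paralog CREBBP (CBP) went from 209.8 ± 3.4 to 229 ± 7.4 CPM, a call (log2 fold change 0.12 ± 0.04, adjusted p = 0.013) that was lost without a count filter (0.05), with library totals alone (0.05) and without DMSO replicate 1 (0.06), DMSO replicate 2 (0.10) or MZ1 replicate 2 (0.09). Per read of EP300 there were 1.14 and 1.12 reads of CREBBP with DMSO and 0.896 and 0.922 with MZ1.

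KAT2A (GCN5), the catalytic subunit of the SAGA and ATAC coactivator complexes, fell steeply. It stood at 102 and 96.2 CPM with DMSO and at 15.7 and 14.7 CPM with MZ1, a 6.52-fold fall (chromosome 17, 42113108 to 42121358; log2 fold change −2.70 ± 0.08, adjusted p = 9.74e-21). Other genes cover 10.8% of its exonic bases, most of all a same-strand transcript that is not analysed here. KAT2B (PCAF), the paralog that can take its place in those complexes, went from 13.6 ± 0.60 to 15.9 ± 2.2 CPM and was not called (log2 fold change 0.22 ± 0.13, adjusted p = 0.115). It was called higher with upper-quartile scaling (0.50, adjusted p = 0.0014), with the stricter count filter (0.39, adjusted p = 0.00689) and without MZ1 replicate 1 (0.37, adjusted p = 0.0186). KAT2A held 88.6% and 87.3% of the reads of the pair with DMSO and 52.4% and 45.7% with MZ1. These shares are not adjusted for exonic length. In mean CPM per kilobase of exon, KAT2A stood at 26.3 and KAT2B at 2.41 with DMSO, and at 4.03 and 2.81 with MZ1.

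Other subunits of SAGA and ATAC moved in both directions: 7 of 18 were higher and 9 lower, with a median of −0.23 that became 0.04 with upper-quartile scaling. Counts of partner genes, here and below, stand against the same 36.0% higher and 53.2% lower of protein-coding genes in the members' range, and 42.8% and 41.3% of all tested genes. SUPT20H rose from 56.98 ± 0.81 to 183 ± 6.0 CPM, and USP22, the deubiquitinase of SAGA, from 389.9 ± 11 to 897 ± 0.29 CPM. TAF5L fell from 84.7 ± 0.17 to 20.5 ± 0.0097 CPM and TADA1 from 33.9 ± 2.1 to 7.68 ± 0.94 CPM.

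The BRPF family are scaffolds that hold acetyltransferases of the MYST family on chromatin. BRD1 (BRPF2), a scaffold of KAT7 (HBO1), rose 5.12-fold, from 104 and 109 CPM to 557 and 536 CPM (chromosome 22, 49773283 to 49827512; log2 fold change 2.36 ± 0.05, adjusted p = 4.96e-24). BRPF1 went from 59.5 ± 0.66 to 60.3 ± 2.1 CPM and was not called (log2 fold change 0.02 ± 0.06, adjusted p = 0.771), but was called higher with upper-quartile scaling (0.29, adjusted p = 0.000188) and with the stricter count filter (0.19, adjusted p = 0.00764). BRPF3 went from 70.3 ± 0.013 to 57.5 ± 1.8 CPM, a called fall (log2 fold change −0.29 ± 0.06, adjusted p = 0.00013) that was lost under the same changes of scaling (−0.02) and filter (−0.12). Per read of BRPF1 there were 1.77 and 1.82 reads of BRD1 with DMSO and 9.46 and 8.67 with MZ1.

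Among 9 partners of these scaffolds 3 were higher and 5 lower (median −0.41, but −0.14 with upper-quartile scaling and −0.24 with the stricter filter). The 3 acetyltransferases of the list split: KAT7 rose from 73.1 ± 3.9 to 102 ± 0.85 CPM and KAT6A from 138 ± 2.1 to 196 ± 7.6 CPM, and KAT6B fell from 76.5 ± 7.4 to 22.7 ± 1.2 CPM. ING4, a reader of methylated lysine, rose from 18.05 ± 0.57 to 39.1 ± 3.3 CPM. MEAF6, a small subunit shared by these complexes, fell from 59.1 ± 1.5 to 12.1 ± 0.34 CPM and JADE1, an alternative scaffold, from 77.6 ± 1.8 to 22.7 ± 0.67 CPM.

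SWI/SNF complexes slide and eject nucleosomes, and 5 of their subunits in the list carry bromodomains. All 5 fell, with the same call under the 12 alternatives, against 53.2% of protein-coding genes in the members' range. Their summed level was 1199 and 1166 CPM with DMSO and 537 and 540.3 CPM with MZ1. SMARCA4 (BRG1), an ATPase of the complex, fell 2.47-fold, from 689 and 670.0 CPM to 274 and 276 CPM (chromosome 19, 10960825 to 11079426; log2 fold change −1.31 ± 0.04, adjusted p = 4.6e-20). SMARCA2 (BRM), the alternative ATPase, fell from 123 ± 7.0 to 70.9 ± 3.2 CPM (log2 fold change −0.80 ± 0.06, adjusted p = 1.67e-12). SMARCA4 held 84.3% and 84.99% of the reads of the pair before and 78.9% and 80.1% after.

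PBRM1 (BAF180), which holds several bromodomains and defines the PBAF form, fell from 185 ± 4.5 to 98.2 ± 0.12 CPM (log2 fold change −0.91 ± 0.05, adjusted p = 5.05e-15). BRD7, also of PBAF, fell 2.06-fold, from 104 and 98.3 CPM to 47.3 and 50.9 CPM (chromosome 16, 50313487 to 50368934; log2 fold change −1.04 ± 0.06, adjusted p = 3.07e-14). BRD9, its relative in the non-canonical BAF form, fell 2.07-fold, from 90.5 and 97.2 CPM to 43.9 and 46.9 CPM (chromosome 5, 850291 to 892824; log2 fold change −1.05 ± 0.06, adjusted p = 6.25e-14). The BRD7 to BRD9 ratio was 1.15 and 1.01 with DMSO and 1.08 and 1.08 with MZ1, and these values overlap. Other genes share 42.4% of the exonic bases of BRD7, most of all the opposite-strand gene ADCY7, with 105 to 156 reads per library. BRD7 had 1696 and 1666 reads and then 669 and 704.

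Of 22 SWI/SNF subunits without a bromodomain, 7 were higher and 13 lower. Their median was −0.26, and 0.02 with upper-quartile scaling, which left 7 lower. SMARCB1 (SNF5), a core subunit, fell from 227 ± 1.2 to 64.9 ± 1.2 CPM. Other genes share 17.7% of its exonic bases, most of all DERL3. SMARCC1, another core subunit, fell from 423 ± 5.6 to 222 ± 3.7 CPM. ARID1A, which defines the canonical BAF form, rose from 368 ± 4.0 to 973 ± 25 CPM, and SS18L1 from 51.3 ± 3.6 to 140.3 ± 2.1 CPM.

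Remodellers of the ISWI type pair an ATPase with a large subunit that often has a bromodomain. Of 6 such subunits 4 rose and 2 fell, against 36.0% and 53.2% of protein-coding genes in the members' range. CECR2 rose 5.58-fold, from 52.96 and 50.9 CPM to 293 and 287 CPM (chromosome 22, 17359949 to 17558149; log2 fold change 2.48 ± 0.05, adjusted p = 1.51e-23). BAZ2A (TIP5), of the nucleolar complex NoRC that silences ribosomal DNA, rose 2.26-fold, from 175 and 171 CPM to 391 and 392 CPM (chromosome 12, 56595596 to 56636816; log2 fold change 1.18 ± 0.04, adjusted p = 1.46e-18). Its paralog BAZ2B rose from 34.2 ± 1.0 to 55.5 ± 4.0 CPM (log2 fold change 0.70 ± 0.08, adjusted p = 6.04e-09). BPTF, the large subunit of NURF, went from 191 ± 9.9 to 216 ± 2.1 CPM, a call (log2 fold change 0.18 ± 0.05, adjusted p = 0.00119) that was lost without a count filter (0.10) and without DMSO replicate 2 (0.09).

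BAZ1B (WSTF) and BAZ1A (ACF1), partners of ISWI in the WICH and ACF complexes, fell. BAZ1B went from 311 ± 0.50 to 178 ± 2.5 CPM (log2 fold change −0.80 ± 0.04, adjusted p = 5.86e-15). BAZ1A went from 155 ± 0.92 to 108 ± 2.3 CPM (log2 fold change −0.51 ± 0.05, adjusted p = 5.23e-10). Other genes share 12.3% of the exonic bases of BAZ1A, most of all an antisense gene of 36 to 71 reads per library. Of 9 tested ISWI partners 8 were lower and 1 higher (median −0.95), against 53.2% of protein-coding genes in the members' range lower and 36.0% higher. That median was −0.68 with upper-quartile scaling. The ATPase SMARCA5 (SNF2H) fell from 258 ± 7.9 to 133 ± 2.4 CPM, HMGXB4 from 58.1 ± 2.2 to 11.2 ± 2.2 CPM and the histone-fold subunit POLE3 from 155 ± 3.9 to 65.98 ± 3.3 CPM. The gene called higher was C17orf49, at 8 and 8 reads with DMSO and 14 and 30 with MZ1. It is uncertain, since 76.5% of its exonic bases are shared with other genes. Also, no ISWI partner was called higher without a count filter or with the stricter one.

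**Figure D2:**
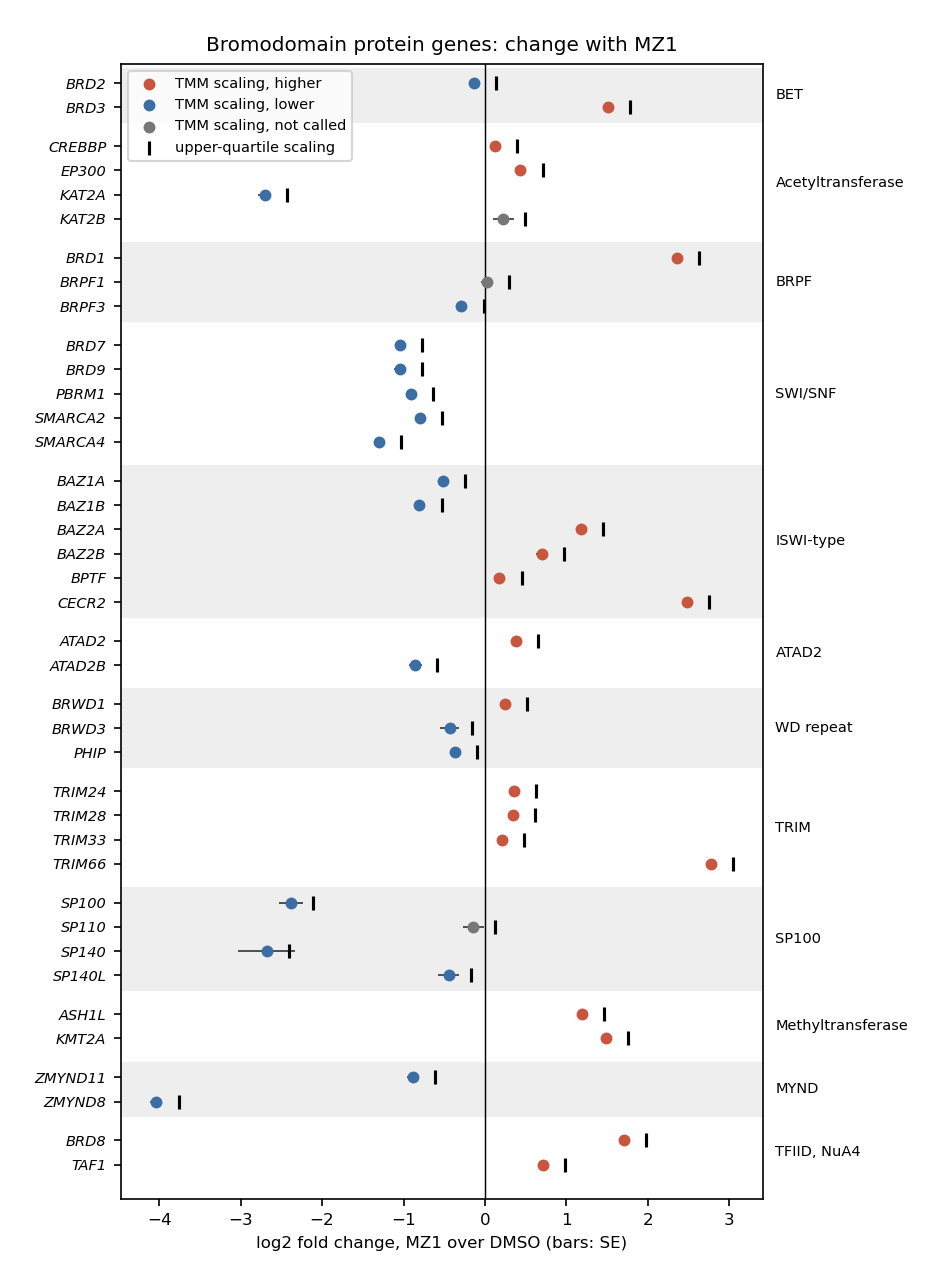
Log2 fold change (MZ1 over DMSO) of each bromodomain protein gene with its standard error, coloured by call under TMM scaling, and the value under upper-quartile scaling as a black tick. The 5 SWI/SNF genes lie below 0 and the 4 TRIM genes above 0 under both scalings, while BRD2 crosses 0.

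The TRIM members are transcriptional cofactors. All 4 rose, with the same call under the 12 alternatives, against 36.0% of protein-coding genes in the members' range. TRIM66, a relative that binds the heterochromatin protein HP1, rose 6.86-fold, from 27.00 and 27.8 CPM to 194 and 182 CPM (chromosome 11, 8612037 to 8682694; log2 fold change 2.78 ± 0.06, adjusted p = 3.34e-23). The rises of the other TRIM genes were small. TRIM28 (KAP1), the corepressor of KRAB zinc finger proteins, went from 997 ± 13 to 1263 ± 24 CPM (log2 fold change 0.34 ± 0.04, adjusted p = 2.76e-09). TRIM24 went from 83.4 ± 0.67 to 107 ± 0.60 CPM (log2 fold change 0.35 ± 0.05, adjusted p = 9.12e-07) and TRIM33, a regulator of SMAD signalling, from 118 ± 0.63 to 137 ± 1.7 CPM (log2 fold change 0.21 ± 0.05, adjusted p = 0.000277).

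The SP100 family are proteins of nuclear bodies that interferon induces. Their 4 genes lie together on chromosome 2, between 230167293 and 230544090. SP100 fell 5.21-fold, from 24.9 and 25.8 CPM to 4.10 and 5.64 CPM (log2 fold change −2.38 ± 0.15, adjusted p = 1.07e-13). SP140, a lymphoid member, fell 6.40-fold, from 6.48 and 4.60 CPM to 1.20 and 0.506 CPM (log2 fold change −2.68 ± 0.35, adjusted p = 1.31e-07), on 106 and 78 reads with DMSO and 17 and 7 with MZ1. SP140L went from 19.5 ± 2.1 to 14.3 ± 1.2 CPM, a call (log2 fold change −0.45 ± 0.12, adjusted p = 0.00189) that was lost with upper-quartile scaling (−0.18). SP110 went from 14.3 ± 0.16 to 12.98 ± 0.25 CPM and was not called (log2 fold change −0.14 ± 0.13, adjusted p = 0.296), and its sign turned with upper-quartile scaling (0.13) and the stricter count filter (0.03). Other genes share 20.9% of the exonic bases of SP110, most of all an antisense gene with 9 to 29 reads per library.

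The histone methyltransferases KMT2A (MLL1), which methylates lysine 4 of histone H3, and ASH1L, which methylates lysine 36, both rose. KMT2A rose 2.80-fold, from 167 and 169 CPM to 487 and 453 CPM (chromosome 11, 118436464 to 118526832; log2 fold change 1.48 ± 0.04, adjusted p = 3.92e-20). Other genes share 18.9% of its exonic bases, most of all a same-strand gene with 0 to 5 reads per library. ASH1L rose 2.28-fold, from 75.5 and 74.7 CPM to 174 and 168 CPM (chromosome 1, 155335268 to 155562807; log2 fold change 1.19 ± 0.05, adjusted p = 3.96e-17). Of 7 partners of KMT2A 6 fell and 1 rose (median −1.22), against 53.2% of protein-coding genes in the members' range lower and 36.0% higher. That median was −0.951 with upper-quartile scaling. HCFC1 fell from 483 ± 11 to 101 ± 2.4 CPM and WDR5, of the core complex, from 160.2 ± 6.1 to 53.3 ± 0.91 CPM. RBBP5, of the same core, rose from 46.2 ± 1.6 to 94.3 ± 1.5 CPM.

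The MYND members ZMYND8 and ZMYND11 read modified histones and act mostly in repression. ZMYND8 had the largest change of the 39 genes. It stood at 154 and 148 CPM with DMSO and at 8.77 and 9.61 CPM with MZ1, on 124 and 133 reads (chromosome 20, 47209214 to 47356889; log2 fold change −4.04 ± 0.08, adjusted p = 2.89e-24). ZMYND11 fell from 71.98 ± 0.41 to 38.9 ± 1.5 CPM (log2 fold change −0.89 ± 0.07, adjusted p = 5.06e-12). Per read of ZMYND11 there were 2.13 and 2.06 reads of ZMYND8 before and 0.232 and 0.241 after.

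BRD8, a subunit of the NuA4 acetyltransferase complex, and TAF1, the largest subunit of the initiation factor TFIID, both rose. BRD8 rose 3.27-fold, from 74.2 and 76.1 CPM to 251 and 241 CPM (chromosome 5, 138139766 to 138178986; log2 fold change 1.71 ± 0.05, adjusted p = 1.43e-20). TAF1 rose from 78.8 ± 0.74 to 129 ± 1.9 CPM (log2 fold change 0.71 ± 0.05, adjusted p = 2.1e-12). Other genes share 11.4% of its exonic bases, most of all a pseudogene of 0 to 6 reads per library. Of 15 other NuA4 subunits 13 fell and 2 rose (median −1.24), against 53.2% of protein-coding genes in the members' range lower and 36.0% higher. That median was −0.968 with upper-quartile scaling. The helicase RUVBL1 fell from 133 ± 2.3 to 36.3 ± 0.76 CPM and its partner RUVBL2 from 195 ± 2.4 to 82.6 ± 3.0 CPM. The genes called higher were EP400, from 225 ± 1.7 to 264 ± 0.22 CPM, and MBTD1, from 79.04 ± 1.4 to 87.6 ± 1.5 CPM. Without a count filter, with library totals alone, with DESeq2, and without either DMSO library or MZ1 replicate 2, 1 NuA4 gene was called higher.

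Of 14 TFIID subunits other than TAF1, 5 were higher and 5 lower. Their median was −0.06, and −0.12 without DMSO replicate 2, −0.10 without MZ1 replicate 1 and −0.01 without MZ1 replicate 2. TAF5 fell from 24.8 ± 1.8 to 4.04 ± 0.39 CPM and TAF4B from 24.02 ± 1.3 to 4.43 ± 0.54 CPM. TAF7 rose from 77.8 ± 0.55 to 122 ± 6.4 CPM, and TAF10 from 19.9 ± 1.9 to 33.2 ± 1.5 CPM. Other genes share 51.2% of the exonic bases of TAF10, most of all ILK. With upper-quartile scaling the TFIID median was 0.21 and 8 were higher, and without a count filter 3 were.

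The ATAD2 pair of AAA ATPases split. ATAD2 stood at 233 and 235 CPM with DMSO and at 311 and 301 CPM with MZ1, a rise (log2 fold change 0.38 ± 0.04, adjusted p = 8.36e-09). ATAD2B stood at 49.5 and 50.6 CPM and then at 28.1 and 27.3 CPM, a fall (log2 fold change −0.85 ± 0.08, adjusted p = 2.58e-10). Per read of ATAD2B there were 4.70 and 4.64 reads of ATAD2 with DMSO and 11.05 and 10.99 with MZ1.

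The WD repeat family split as well. BRWD1, a chromatin reader with a known part in light chain recombination in B-cell precursors, went from 89.1 and 85.7 CPM to 99.5 and 107 CPM (log2 fold change 0.24 ± 0.05, adjusted p = 0.000241). BRWD3 went from 22.2 and 25.3 CPM to 16.7 and 18.5 CPM (log2 fold change −0.44 ± 0.11, adjusted p = 0.000946) and PHIP from 59.01 and 57.8 CPM to 45.1 and 45.6 CPM (log2 fold change −0.36 ± 0.07, adjusted p = 2.19e-05). The calls of BRWD3 and PHIP were lost with upper-quartile scaling (−0.16 and −0.09). The ratio of BRWD1 to PHIP reads was 1.51 and 1.48 with DMSO and 2.21 and 2.36 with MZ1, and that of BRWD1 to BRWD3 4.004 and 3.38 and then 5.95 and 5.80.

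**Figure D3:**
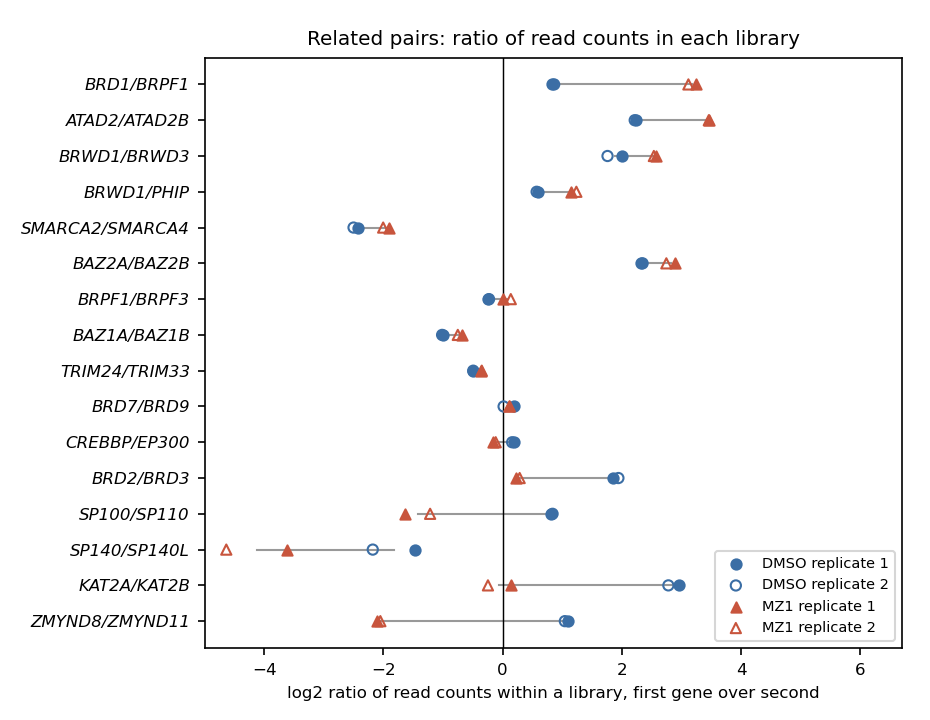
Log2 ratio of read counts of 16 related pairs (first gene over second) within each library, with a line between group means. DMSO libraries are circles and MZ1 libraries triangles; the groups overlap for BRD7 to BRD9 and are apart for the other 15 pairs.

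Within-library ratios of related genes were apart between the groups in 15 of 16 pairs, and in 4 pairs the genes were called in opposite directions (BRD2 and BRD3, ATAD2 and ATAD2B, BRWD1 and BRWD3, BRWD1 and PHIP). With upper-quartile scaling 2 pairs were, ATAD2 and ATAD2B and, with KAT2B then called, KAT2A and KAT2B. No p-value is given for the ratios, since an exact permutation test of 2 libraries against 2 cannot go below 0.33. The ratios are not adjusted for exonic length, so they compare libraries and do not rank the genes of a pair. No such shares were computed over pairs of unrelated genes, and BRWD1 and BRPF1 recur among the pairs. For single genes, the groups did not overlap in 91.3% of all tested genes and 94.3% of protein-coding genes in the members' range. Of the latter genes 36.0% were called higher and 53.2% lower, so neither count is read as a trait of related genes. The log2 ratio (MZ1 minus DMSO, ± SD of the difference) moved by −3.14 ± 0.05 for ZMYND8 to ZMYND11, −2.92 ± 0.30 for KAT2A to KAT2B, −2.30 ± 0.88 for SP140 to SP140L and −2.25 ± 0.30 for SP100 to SP110. It moved by 2.34 ± 0.09 for BRD1 to BRPF1 and by −1.64 ± 0.08 for BRD2 to BRD3. The smallest moves were 0.01 ± 0.13 for BRD7 to BRD9 and 0.14 ± 0.01 for TRIM24 to TRIM33.

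Other readers and the erasers of acetyl marks were measured beside the bromodomain genes. Among genes of the YEATS domain, another acetyl reader, YEATS2 rose from 155 ± 4.0 to 238 ± 9.8 CPM, YEATS4 fell from 44.6 ± 5.6 to 10.3 ± 0.61 CPM and MLLT1 (ENL) from 158 ± 7.6 to 129 ± 0.66 CPM, and with upper-quartile scaling 1 of these 3 was lower in place of 2. Of 17 deacetylases 7 were higher and 7 lower (median 0.31), but 11 and 4 with upper-quartile scaling, and 4 were lower with the stricter count filter or with DESeq2. Their median was 0.58 with upper-quartile scaling, 0.13 with the stricter filter and 0.10 without MZ1 replicate 2. SIRT2 rose from 46.04 ± 2.7 to 147 ± 3.3 CPM and HDAC5 from 158 ± 1.3 to 371 ± 0.86 CPM. HDAC2 fell from 140.0 ± 0.30 to 74.1 ± 0.39 CPM and HDAC3 from 82.9 ± 1.3 to 56.2 ± 0.20 CPM.

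**Figure D4:**
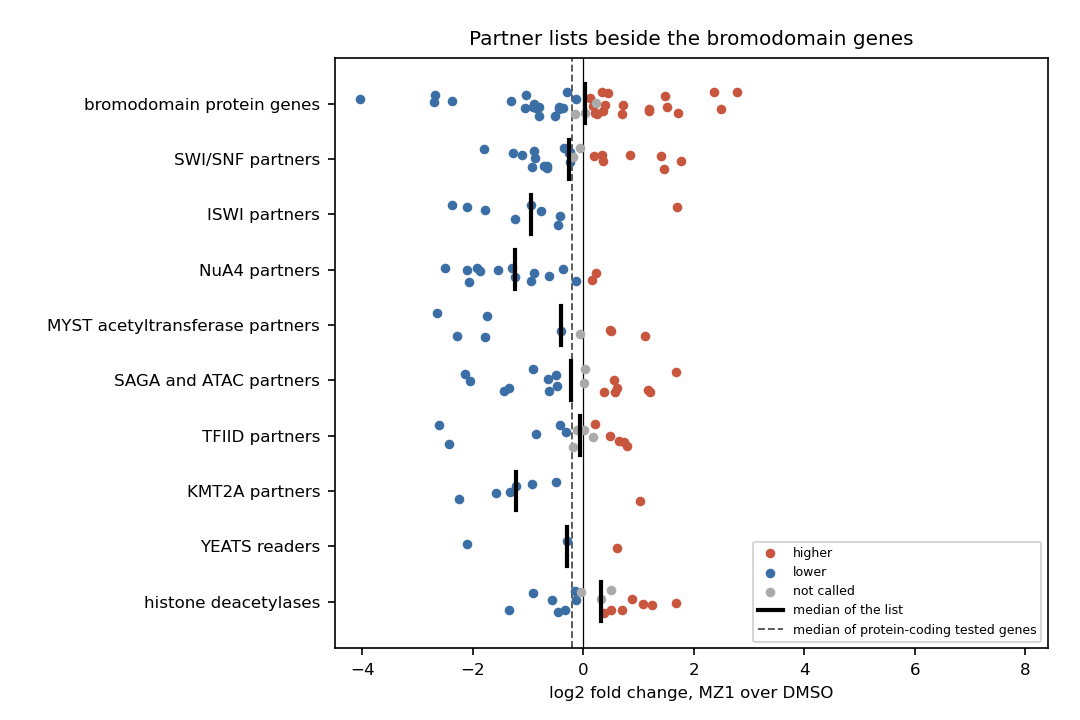
Log2 fold change (MZ1 over DMSO) of each tested gene of the bromodomain list and of 9 partner lists, coloured by call, with the median of each list as a black bar and the median of protein-coding tested genes (−0.20) as a dashed line. The medians of the NuA4 and KMT2A partners are −1.24 and −1.22 (−0.968 and −0.951 with upper-quartile scaling, not drawn).

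Levels of different genes can be set side by side only per length. In CPM per kilobase of exon, TRIM28 was highest of the 39 with DMSO (247) and with MZ1 (313). It was followed with DMSO by BRD2 (47.7), BAZ1B (44.1) and SMARCA4 (43.1), and with MZ1 by BRD1 (93.4), BRD2 (43.4), ATAD2 (42.9) and BRD3 (38.9). By rank BRD1 moved from 10 to 2 and BRD3 from 13 to 5, while KAT2A moved from 6 to 28 and ZMYND8 from 8 to 37. The exonic length counts every annotated isoform, so a gene with long unused exons is placed too low. Across the 39 genes, which share the same 4 libraries, Spearman's rho was computed for the log2 fold change, as a description. It was 0.436 with the mean level over all 4 libraries, 0.184 with exonic length and −0.03 with gene span. That mean level includes the MZ1 values that also form the fold change. Its rho is thus no measure of a trend with the DMSO level.

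**Figure D5:**
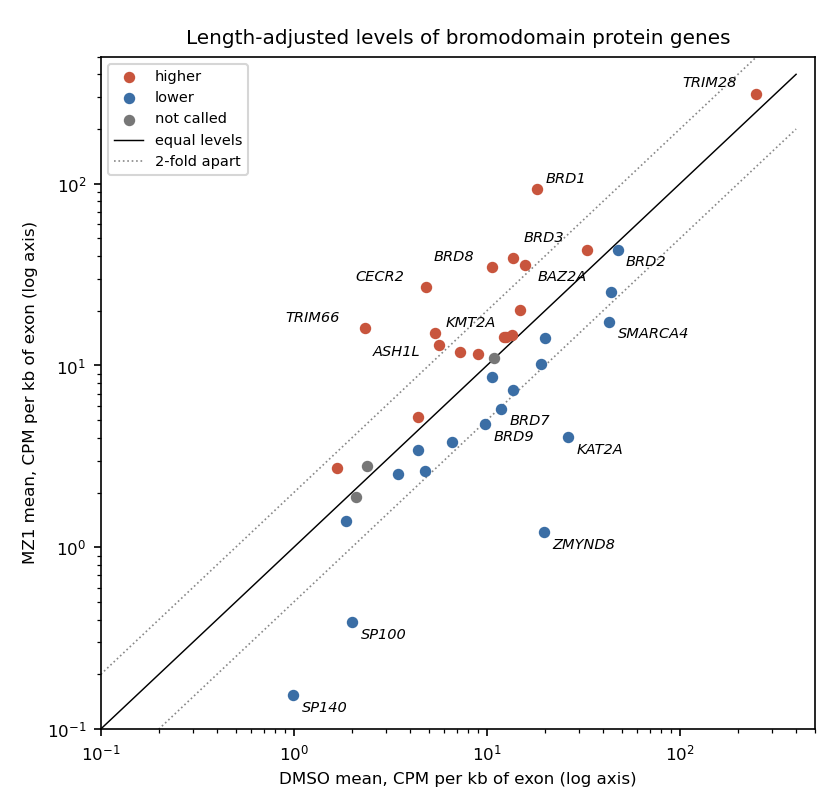
Mean level with DMSO against mean level with MZ1 for the 39 genes, in CPM per kilobase of exon on log axes, with lines of equal levels and of a 2-fold difference. BRD1 lies above the lines at 18.2 and 93.4, and ZMYND8 below them at 19.8 and 1.21.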

How the data were processed

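RNA-seq counts of 697 cells were compared between MZ1 and DMSO. TRIzol extraction and the Illumina TruSeq RNA kit are stated per the labels' protocols. The deposited table holds raw, whole-number read counts for each Ensembl gene ID, per the file headers. The submitters' processing notes name HISAT2 2.2.0 and hg38. Which program counted the reads, with which annotation and strand setting, is not given in the sources used here. Overlapping genes may therefore share reads. Each share of exonic bases is the total over all overlapping genes, of which only that with the largest share is named or described. Of the partners named above with no such share beside them, SMARCA5, USP22, YEATS2, WDR5 and RUVBL1 share 10.4% to 13.5% of their exonic bases. For each of these the largest share is with a gene on the opposite strand. Symbols were found for 28597 of 28814 IDs, and positions and exonic lengths came from GENCODE 29 (GRCh38).

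The fit used edgeR 4.0.16 (R 4.3.3): filterByExpr by group, TMM, glmQLFit and glmQLFTest on all 4 libraries with treatment as sole term, and Benjamini-Hochberg adjustment over 16862 genes, with calls below 0.05. The SE of a log2 fold change derives from its coefficient without a prior and the F value. Ratios of counts in log2 used counts plus 0.5. Alternatives were upper-quartile scaling, library totals alone, DESeq2 size factors, no filter, a stricter filter (50 counts in every library of a group), DESeq2 1.42.0, limma-voom (limma 3.58.1), the replicate block and each library left out. The fit was tested on simulated counts. Replicates of a group differed beyond sampling noise (chi-square per degree of freedom: DMSO 2.56, MZ1 2.26). This spread does not tell whether they were separate cultures. Each count column is 1 library per the labels.

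The members and lists were chosen with earlier results of these data known. All 39 members are named, and per list up to 2 partners in each direction with the smallest adjusted p. SMARCA5, KAT7 and KAT6B were added after their values were seen. Promoter windows came from RefSeq (GRCh38.p14). The summed level of 1 marker list is not reported here.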

Additional observations from a re-analysis of the deposited data

How the results depend on the processing

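Of the 39 bromodomain genes 29 kept call and direction under the 12 alternatives, and the counts of 18 higher and 18 lower stayed within 1.5 times, from 16 to 21 and from 13 to 18. With upper-quartile scaling BRD2 became 0.138 and SP110 0.127. The medians of SWI/SNF, SAGA and ATAC, and TFIID partners became 0.0154, 0.0389 and 0.215. Those of the members, MYST partners, YEATS readers and deacetylases became 0.292, −0.138, −0.018 and 0.582. The medians of the ISWI, NuA4 and KMT2A partners became −0.68, −0.968 and −0.951. There 7 SWI/SNF partners and 1 YEATS reader were lower, 8 TFIID partners were higher, and of the deacetylases 11 were higher and 4 lower. With the stricter filter BRD2 became 0.036, SP110 0.0251 and the TFIID median 0.113, with 0 ISWI partners higher and 4 deacetylases lower. The medians of members, SWI/SNF, MYST, SAGA and ATAC partners, YEATS readers and deacetylases were then 0.19, −0.0865, −0.24, −0.0629, −0.12 and 0.13. BRPF1, which is also the median member, became −0.0565 with library totals alone and −0.0568 without a filter, and 1 NuA4 partner was higher in both. Without a filter 0 ISWI and 3 TFIID partners were higher, and the SAGA and ATAC median was −0.548. With library totals alone that median was −0.309. Genes were picked by symbol, and a second gene bears the name ATXN7, so the median without a filter may cover a further row. With DESeq2 1 NuA4 partner was higher and 4 deacetylases lower. Leaving out 1 library, BRPF1 and so the members' median ranged from −0.038 to 0.0618, the NuA4 partners called higher from 1 to 2, the ISWI ones from 0 to 1, the TFIID median from −0.122 to −0.00671, the deacetylase median from 0.0975 to 0.415 and the BRD7 to BRD9 log2 ratio from −0.082 to 0.0978. Such a fit assumes that the lone library varies like the other group. Upper-quartile scaling and the stricter filter moved all genes by a median of 0.271 and 0.17 on the log2 scale, and the cause of the other changes was not tested.

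The labels do not state whether replicate numbers pair the samples. Deviations from the group mean had a correlation of 0.014 between DMSO and MZ1 libraries of the same number. This is a single value, since with 2 libraries per group the deviations of replicate 2 mirror those of replicate 1. It cannot tell how the samples were paired. With the replicate block 7107 genes were called higher and 6856 lower, against 7222 and 6969, and the members stayed at 18 and 18. Of the 39 members, SP140 has the largest SE, at 7 and 17 reads in the MZ1 libraries.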
